A study of Drosophila melanogaster with 9 samples.

Results

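Innexins are the proteins that build gap junctions in insects. They sit in the membranes of neighboring cells, where the channels of one cell dock to those of the next and let ions and small molecules pass. In the *Drosophila* ovary they couple follicle cells to each other and couple the somatic follicle cells to the germline, which consists of the nurse cells and the oocyte. The innexin genes described here are *ogre*, *Inx2*, *Inx3*, *Inx7* and *zpg*. They were chosen by name and not by a rule on their values, but with earlier results of these data known. They are 5 of the 8 innexin genes of the fly and 5 of 14077 genes in the data, and all 5 were found. The other 3 family members, *Inx5*, *Inx6* and *shakB*, are given for comparison. The members play different parts. *zpg* (zero population growth, innexin 4) is the germline innexin and is needed for early germ cells to survive and differentiate. *Inx2* is the broadly used epithelial innexin and is present in follicle cells. *Inx3* works with *Inx2* in epithelia, *ogre* (optic ganglion reduced, innexin 1) is needed in the developing nervous system, and *Inx7* is known from the embryonic gut and nervous system.

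The libraries are TRAP-seq libraries, made from the mRNA bound to ribosomes that carry a GFP-tagged large subunit protein (RpL10Ab-GFP) and are pulled down with an antibody against GFP. The data comprise 9 libraries, with 3 replicates in each of 3 groups and about 100 flies in each library, so a replicate is a pool of animals. Fed AFC libraries (all follicle cells) had the genotype that the labels spell GR1-Gal4>UAS-Rpl10A-GFP. Feeding meant 2 days of yeast paste, renewed every 24 h, after an aging period of 3 days, at 25°C. The same genotype, held for 16 to 20 h on yeast-free apple juice agar, gave the starved AFC libraries. The genotype labelled PG150-Gal4>UAS-Rpl10A-GFP, fed like the first group, gave the fed SFC libraries (stretch follicle cells). All groups thus carry the tagged ribosomal protein, and the fed SFC group differs from the fed AFC group in its driver line. *GR1-GAL4* is active in follicle cells from early oogenesis on, SFCs included, and weakly in the gut. *PG150-GAL4* is active in SFCs and centripetal cells, and weakly in Malpighian tubules. The labels call the GR1 samples main body follicle cells and name the abdomen as tissue, while thoraxes and abdomens were collected. In such samples, fewer cells of a type, less mRNA per cell and less ribosome binding cannot be told apart.

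Library totals were 30551253 to 45910215 estimated reads, and 1.19% to 36.3% of a library fell on rRNA genes and pseudogenes, with the highest share in fed SFC replicate 2. Fed AFC replicate 1 stood apart. Of 1619 genes with at most 5 reads in each of the other 8 libraries, 63.2% had at least 10 reads in it, with a median of 34.3 reads per kilobase. For *RpL10Ab*, the gene of the tagged protein, the values do not separate mRNA of the endogenous gene from mRNA of the transgene. *RpL10Ab* was at 2535 to 4216 CPM (read counts scaled to a common library size with TMM factors, as edgeR gives them) in fed AFCs, 2474 to 3364 CPM in starved AFCs and 1132 to 2211 CPM in fed SFCs. All 3 SFC libraries were thus below all 6 AFC libraries, with an LFC (log2 fold change) of -0.90 against fed AFCs that was not past the threshold (adjusted p = 0.178, edgeR's quasi-likelihood test). In CPM, fed SFCs did not overlap fed AFCs in 20.9% of all genes tested, and starved AFCs in 24.6%, in either direction. None of the 11 SFC markers named in the study's methods was past the threshold between fed SFCs and fed AFCs (edgeR's quasi-likelihood test, 1 with an unadjusted p below 0.05). Of all genes tested, 2.99% were past the threshold and 19.7% had an unadjusted p below 0.05. Of the 3 mid/late follicle cell markers, only *Sox14* was past the threshold, lower in SFCs than in fed AFCs (LFC -1.65, adjusted p = 0.0087, edgeR's quasi-likelihood test). In the same test *br* had an LFC of -0.72 (adjusted p = 0.493). *Yp1* went the other way, with an LFC of 0.60 (adjusted p = 0.467). These markers did not separate the driver lines clearly, but lists this short cannot show that no difference exists. The defining germline, muscle and midgut markers were all read in every group, and no marker list had a gene without reads in a whole group.

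The 5 genes lie on 3 chromosome arms of BDGP6.54. Of these, *ogre* (FBgn0004646, chromosome X from 6973620 to 6991318, minus strand), *Inx7* (FBgn0027106, chromosome X from 6991612 to 6993612, minus strand) and *Inx2* (FBgn0027108, chromosome X from 6998672 to 7004151, plus strand) form a cluster. The first exon of *ogre* and the last exon of *Inx7* are 293 bp apart, and 5059 bp with 1 annotated noncoding gene separate *Inx7* from *Inx2*. *Inx3* (FBgn0265274) lies on chromosome 3R from 28853606 to 28859497 on the minus strand, within the span of *spg* on the other strand but with no shared exon base. *zpg* (FBgn0024177) lies on chromosome 3L from 6604366 to 6606032 on the minus strand within the span of *Rexo5* on the other strand, also with no shared exon base. An exon of *ogre* overlaps the antisense noncoding RNA gene *lncRNA:CR44084*, and because the kit used does not keep the strand of a transcript, reads from their shared bases cannot be told apart. *Inx2* and *Inx7* overlap no other gene. The encoded proteins are 362 (*ogre*), 367 (*Inx2*), 395 (*Inx3*), 438 (*Inx7*) and 367 (*zpg*) amino acids long. Within each of the 5 genes, all annotated transcripts share 1 coding sequence, so transcripts of a gene differ only outside it.

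The germline innexin *zpg* had the highest level of the family in every one of the 9 libraries, followed in every library by *Inx2*. Levels of different genes are compared per length, in TPM (transcript abundance relative to the summed abundance of the library), and within a library only, because rRNA reads take different shares of the libraries. *zpg* was at 25.0, 40.7 and 21.8 TPM in fed AFC replicates 1, 2 and 3, at 37.3, 38.1 and 18.0 TPM in starved AFCs and at 56.9, 16.4 and 46.3 TPM in fed SFCs. This placed it above 81.1% to 89.3% of all genes. *Inx2* was at 7.53, 8.62 and 7.20 TPM in fed AFCs, at 8.49, 10.9 and 6.70 TPM in starved AFCs and at 10.4, 7.74 and 13.7 TPM in fed SFCs, above 64.1% to 72.0% of all genes. Within a library *zpg* was 2.12 to 5.47 times as high as *Inx2*, with mean ratios (± SD, n = 3) of 3.69 ± 0.904 for fed AFCs, 3.52 ± 0.857 for starved AFCs and 3.66 ± 1.69 for fed SFCs. *zpg* made up 53.9% to 75.6% of the summed innexin TPM of a library and *Inx2* 13.8% to 25.9%.

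The other 3 members were lower. *Inx7* was at 2.45 to 5.08 TPM and came next after *Inx2* in 8 of 9 libraries. *ogre* was at 0.544 to 3.26 TPM and *Inx3* at 0.533 to 2.72 TPM, which put both near the middle of all genes (*ogre* above 40.7% to 52.0% of them, *Inx3* above 41.6% to 48.1%). *Inx2* was above *Inx7* in all 9 libraries, by 1.62 to 4.49 times, and *Inx7* was above *Inx3* in all 9. *Inx7* was above *ogre* in 8 of 9, the exception being fed SFC replicate 3. The neighbors *ogre* and *Inx3* did not differ beyond their spread, since *ogre* was the higher in 6 of 9 libraries and their ratio ran from 0.456 to 2.10.

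The other 3 innexins were close to the lower limit in most libraries. *Inx6*, known from neurons, had 261 reads in fed AFC replicate 1 and 0 to 4 reads in each of the other 8 libraries. *Inx5* had 166 reads in fed AFC replicate 1, 69 in fed SFC replicate 2 and 1 to 12 elsewhere. *shakB*, a main gene of electrical synapses in the fly, had 469 reads in fed AFC replicate 1 and 3 to 71 elsewhere. These values follow single libraries rather than groups, and the high library is the one with reads on genes that had few or none elsewhere. *Inx5*, *Inx6* and *shakB* stood there at 113, 169 and 74.3 reads per kilobase. In the same library *Inx3* was at 228 and *ogre* at 218 reads per kilobase, nearer to the values of genes with few or no reads elsewhere. *Inx7* was at 359, *Inx2* at 630 and *zpg* at 2095. In fed AFC replicates 2 and 3, *ogre* was at 196 and 144 and *Inx3* at 93.2 and 82.4 reads per kilobase, not scaled for library size. The part that reads of the kind seen on such genes in fed AFC replicate 1 have in the member values was not tested. The plot of TPM for the 8 genes shows *zpg* on top, 4 members in the middle and 3 genes that are highest in fed AFC replicate 1.

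**Figure D1:**
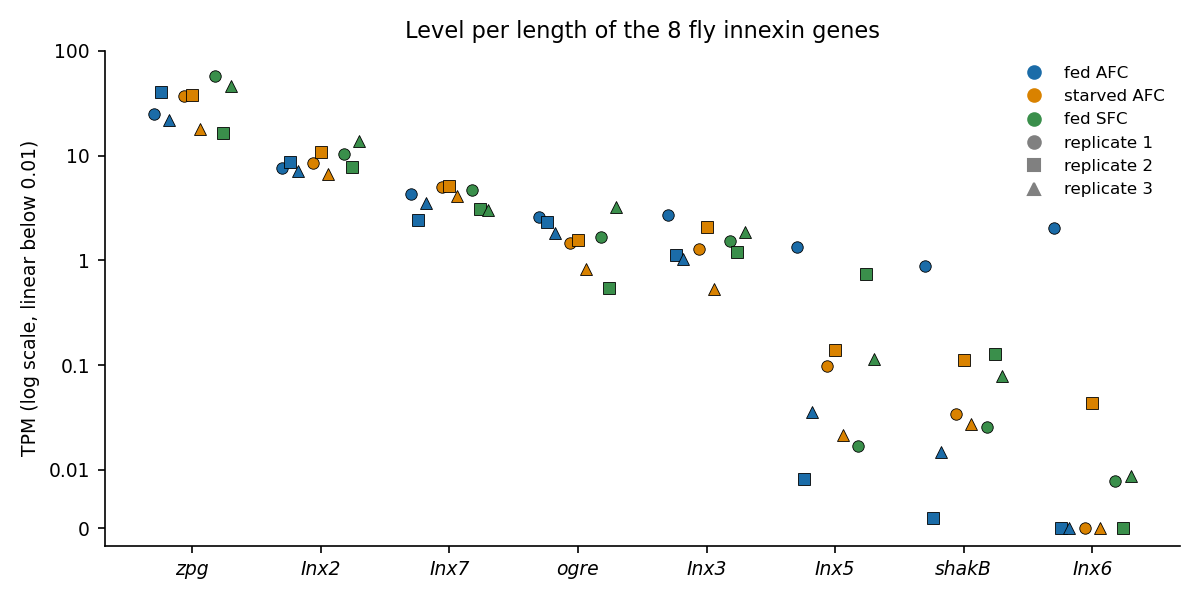
TPM (log scale, linear below 0.01) of the 8 innexin genes in the 9 libraries, with color for the group and symbol for the replicate. *zpg* lies between 16.4 and 56.9 TPM and *Inx2* between 6.70 and 13.7 TPM in every library, while *Inx6* reaches 2.02 TPM in fed AFC replicate 1 only and is at most 0.0433 TPM in the other 8.

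Salmon assigned most reads of each gene to 1 transcript, and it was the same transcript in all 9 libraries. For *ogre* it was ogre-RC, 1 of 6 transcripts, with 76.4% to 100% of the gene's TPM. It is the only one that starts in the far upstream exon (chromosome X from 6991241 to 6991318), the one next to *Inx7*. For *Inx3* it was Inx3-RB, with 82.7% of TPM in fed AFC replicate 1 and 98.5% to 100% elsewhere. For *zpg* it was zpg-RB, with 100% in 8 libraries and 82.4% in fed SFC replicate 1, where 1018 reads went to zpg-RA. *Inx7* has 1 transcript. In *ogre*, *Inx3* and *zpg* the main transcript is also the one that extends farthest at its 3' end, by 414, 531 and 84 nt beyond all others. Such shares are estimates, because the transcripts of a gene share most of their bases.

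*Inx2* was the member with a stable second transcript. Inx2-RB, which joins the coding exon to a distal 3' exon (chromosome X from 7002772 to 7004151), held 60.8%, 82.7% and 82.7% of the gene's TPM in fed AFC replicates 1 to 3, 78.4%, 76.0% and 71.1% in starved AFCs and 79.9%, 78.9% and 85.4% in fed SFCs. Inx2-RC is unspliced and ends soon after the coding sequence, at base 7000503. It held 22.7%, 15.1% and 14.9% in fed AFCs, 21.4%, 23.2% and 24.7% in starved AFCs and 18.7%, 21.1% and 14.6% in fed SFCs. For both transcripts fed AFCs overlap each of the other groups, but the overlap with starved AFCs rests on fed AFC replicate 1, the library that stood apart. Starved AFCs and fed SFCs do not overlap, with the share of Inx2-RC higher in all 3 starved libraries, but the lowest starved value (21.4%) and the highest SFC value (21.1%) are close. In CPM of whole genes, these groups separated in 24.6% of all genes tested, and no such percentage was computed for transcript shares. The shares of the *Inx2* transcripts are parts of the same total and are not independent. Group means for Inx2-RC, in the same order of groups, were 17.6% ± 4.41, 23.1% ± 1.67 and 18.1% ± 3.29 (SD, n = 3), and this difference was not tested.

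None of the 5 genes was past the threshold (an adjusted p below 0.05) between fed SFCs and fed AFCs. This comparison asks which mRNAs are bound to tagged ribosomes differently in the cells that clear nurse cells late in normal oogenesis. *zpg* was at 56.4, 121 and 73.5 CPM in fed AFC replicates 1 to 3 and at 107, 66.7 and 96.5 CPM in fed SFCs. *Inx2* was at 30.1, 50.5 and 42.2 CPM in fed AFCs and at 34.8, 49.5 and 48.9 CPM in fed SFCs. The groups overlap for both genes. The LFC was 0.10 for *zpg* (SE 0.29, adjusted p = 0.869, edgeR's quasi-likelihood test) and 0.12 for *Inx2* (SE 0.25, adjusted p = 0.813). The 95% interval of the fold ran from 0.689 to 1.67 for *zpg* and from 0.750 to 1.57 for *Inx2*.

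*Inx7* was at 9.97, 7.03 and 11.9 CPM in fed AFCs and at 8.99, 12.5 and 6.26 CPM in fed SFCs. *Inx3* was at 8.53, 4.90 and 5.06 CPM in fed AFCs and at 4.29, 6.95 and 5.76 CPM in fed SFCs. Again the groups overlap for both, with LFCs of -0.06 (SE 0.38) and -0.12 (SE 0.51). Their intervals were wider, from 0.543 to 1.69 times for *Inx7* and from 0.425 to 1.98 times for *Inx3*. *ogre* varied most among the SFC libraries, with 4.70, 2.98 and 9.42 CPM beside 8.73, 10.5 and 8.77 CPM in fed AFCs. Its coefficient of variation was 58.5% in fed SFCs and 10.9% in fed AFCs. The lowest value, 66 reads, came from fed SFC replicate 2, the library with the fewest reads outside rRNA. The LFC of *ogre* was -0.71 (SE 0.49, adjusted p = 0.434, edgeR's quasi-likelihood test), and its interval ran from 0.293 to 1.28 times. Without fed SFC replicate 3 the LFC was -1.27, and without fed SFC replicate 2 it was -0.33. The number of innexin genes past the adjusted threshold was 0 of 5, where 2.99% of the 10870 genes tested were past it. None of the 5 had an unadjusted p below 0.05, as 19.7% of all genes did, and in none did the groups separate, as they did in 20.9% of all genes. DESeq2 and limma-voom also called none. The median absolute LFC was 0.12 over the 5 genes and 0.51 over all genes tested.

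**Figure D2:**
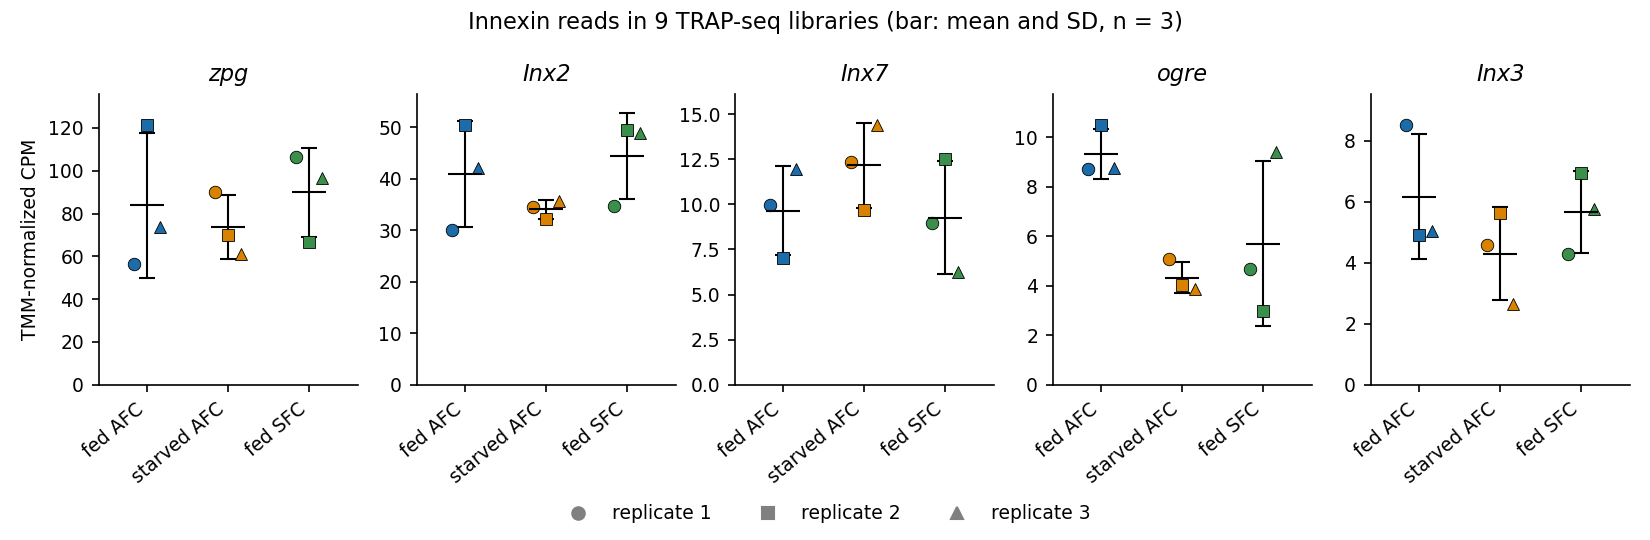
TMM-normalized CPM of the 5 innexin genes by group, each panel from 0 on its own axis, with 1 point per library, symbols for the replicate number and bars for the mean and SD (n = 3). The groups overlap in each gene except *ogre*, whose fed AFC libraries (8.73 to 10.5 CPM) all lie above the starved AFC libraries (3.89 to 5.07 CPM).

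Between starved and fed AFCs, *ogre* was the member with the largest difference, and it was not past the adjusted threshold. The comparison asks what changes in follicle cells when flies lack protein and egg chambers die in mid-oogenesis. *ogre* was at 8.73, 10.5 and 8.77 CPM in fed AFCs and at 5.07, 4.04 and 3.89 CPM in starved AFCs. All 3 starved libraries were thus below all 3 fed ones, and the spread within each group was small. The starved level was 0.464 times the fed level (LFC -1.11, SE 0.49, 95% interval 0.221 to 0.974 times). The unadjusted p was 0.0435 and the adjusted p 0.968 (edgeR's quasi-likelihood test). Of all 10870 genes, 0.221% were past the adjusted threshold, 5.02% had an unadjusted p below 0.05, and groups separated in 12.1%, in 5.91% with the starved group lower. The 5 genes gave 0 past the adjusted threshold, 1 with an unadjusted p below 0.05 and 1 with separate groups. Leaving out any 1 of the 6 AFC libraries brought the unadjusted p of *ogre* to between 0.0538 and 0.120, while it was 0.0109 in a fit of these 2 groups alone, 0.0146 without fed SFC replicate 2 and 0.0283 by DESeq2. The adjusted p was 0.378 to 1 over all alternatives. The summed midgut markers, genes of a tissue in which *GR1-GAL4* is weakly active, were at 4215 to 6635 CPM in fed and 3390 to 4697 CPM in starved AFCs. Of these 8 markers, 3 were past the adjusted threshold and lower in starved AFCs, and none was past it and higher. The part of midgut mRNA in the *ogre* values was not tested.

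For the other 4 members the starved and fed libraries overlapped. *Inx2* was at 34.5, 32.1 and 35.7 CPM in starved AFCs, within the range of fed AFCs, with an LFC of -0.26 (SE 0.25, interval 0.576 to 1.21 times). The overlap rests on fed AFC replicate 1 (30.1 CPM), the library that stood apart. Fed AFC replicates 2 and 3, at 50.5 and 42.2 CPM, were above all starved libraries. Without fed AFC replicate 1 the LFC was -0.44. The starved libraries were close to each other, with a coefficient of variation of 5.34% beside 25.1% in fed AFCs. *Inx3* was at 4.60, 5.64 and 2.64 CPM (LFC -0.52, SE 0.51). *Inx7* was the only member with a positive LFC, 0.33 (SE 0.38), at 12.3, 9.71 and 14.4 CPM, which overlap the fed values. *zpg* was at 90.0, 69.9 and 61.2 CPM (LFC -0.18, SE 0.30, interval 0.564 to 1.37 times). The adjusted p of the 5 was 0.968 to 0.984, and DESeq2 and limma-voom called none either. The median LFC was -0.26 over the 5 genes and -0.094 over all genes tested. As absolute values the medians were 0.33 over the 5 genes and 0.29 over all genes tested.

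Fed SFCs and starved AFCs represent the 2 settings of nurse cell clearance, and none of the 5 innexin genes was past the threshold between them. These groups differ in both driver line and feeding, and the parts of driver line and feeding cannot be told apart. The LFCs were 0.40 for *ogre* and *Inx3*, 0.38 for *Inx2*, 0.29 for *zpg* and -0.40 for *Inx7*, with SEs of 0.25 to 0.51. The adjusted p was 0.449 to 0.739 (edgeR's quasi-likelihood test), where 2.22% of all genes were past the threshold. None of the 5 had an unadjusted p below 0.05, beside 17.9% of all genes, and in none did the groups separate, beside 24.6%. DESeq2 and limma-voom called none. The median absolute LFC between these groups was 0.40 over the 5 genes and 0.47 over all genes tested. The interval of *Inx2* ran from 0.899 to 1.88 times. Starved *Inx2* values (32.1 to 35.7 CPM) reached just above the lowest SFC value of 34.8 CPM, the other SFC libraries being at 48.9 and 49.5 CPM. The 3 comparisons share libraries in pairs, so their values are not independent of each other.

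**Figure D3:**
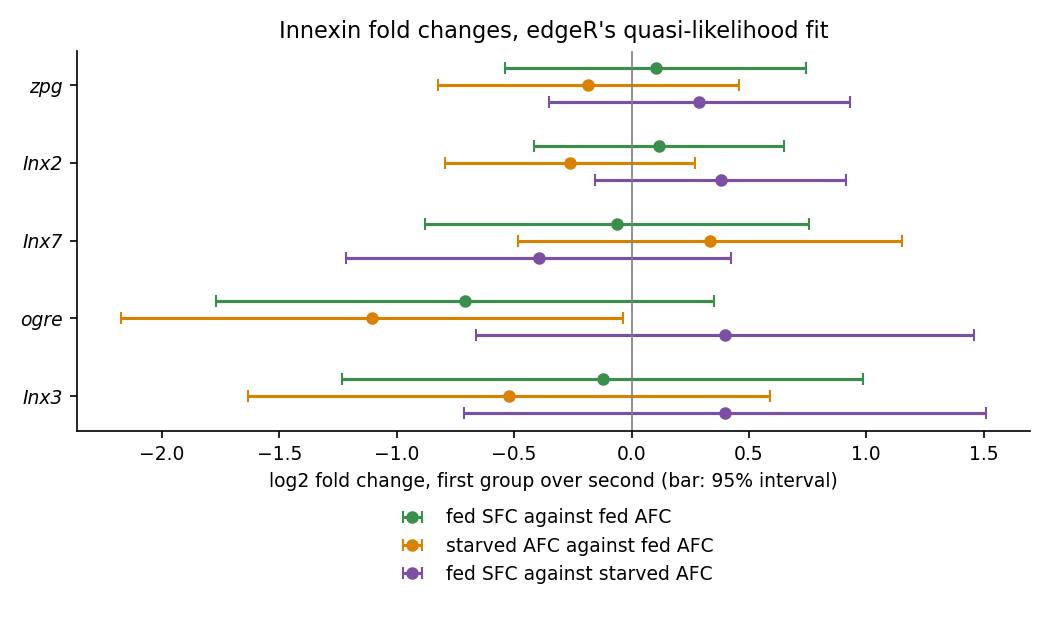
LFC of the 5 innexin genes in the 3 comparisons (first group over second), with the 95% interval of edgeR's quasi-likelihood fit. All intervals include 0 except that of *ogre* in starved against fed AFCs, which runs from -2.18 to -0.038 before any adjustment for the number of genes.

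The level of *zpg* ran alongside germline genes across the libraries. Of 14 germline markers listed, 13 were matched, among them *vas*, a germline RNA helicase, *osk* and *bcd*, maternal patterning genes, and *dhd*, a thioredoxin of the female germline. The tag was driven in follicle cells, yet all 13 were read in every library. *dhd* was the highest, at 2964 to 7555 TPM, and the median of the 13 was 12.1 to 55.7 TPM. *zpg* lay inside their range in each library, with 4 to 8 of the 13 above it, and was 0.831 to 2.55 times their median. The summed CPM of the 13 was 5025, 11088 and 6802 in fed AFC replicates 1 to 3. It was 7446, 6328 and 6170 in starved AFCs and 8955, 7003 and 7790 in fed SFCs. In CPM, *zpg* was lowest in fed AFC replicate 1 and highest in fed AFC replicate 2, as was this sum.

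Over the 9 libraries, Pearson's r between log2 CPM of *zpg* and the log2 sum was 0.947 (Spearman's rho 0.950), and it was 0.889 with *dhd* left out of the sum. For single germline markers r with *zpg* was 0.117 to 0.870, with a median of 0.564. The same r to the full sum was 0.604 for *Inx2*, 0.237 for *ogre*, -0.258 for *Inx3* and -0.541 for *Inx7*. With *dhd* left out it was 0.505, 0.224, 0.0083 and -0.754 in the same order. These correlations are descriptions over 9 libraries that share groups and scaling. The part of germline mRNA in the *zpg* reads was not tested. Between groups, *bcd* was the only germline marker past the threshold, higher in fed SFCs than in fed AFCs (LFC 1.69, adjusted p = 0.0188, edgeR's quasi-likelihood test) and than in starved AFCs (LFC 2.05, adjusted p = 0.0091). Of all genes tested, 2.99% and 2.22% were past the threshold in these comparisons, in that order.

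**Figure D4:**
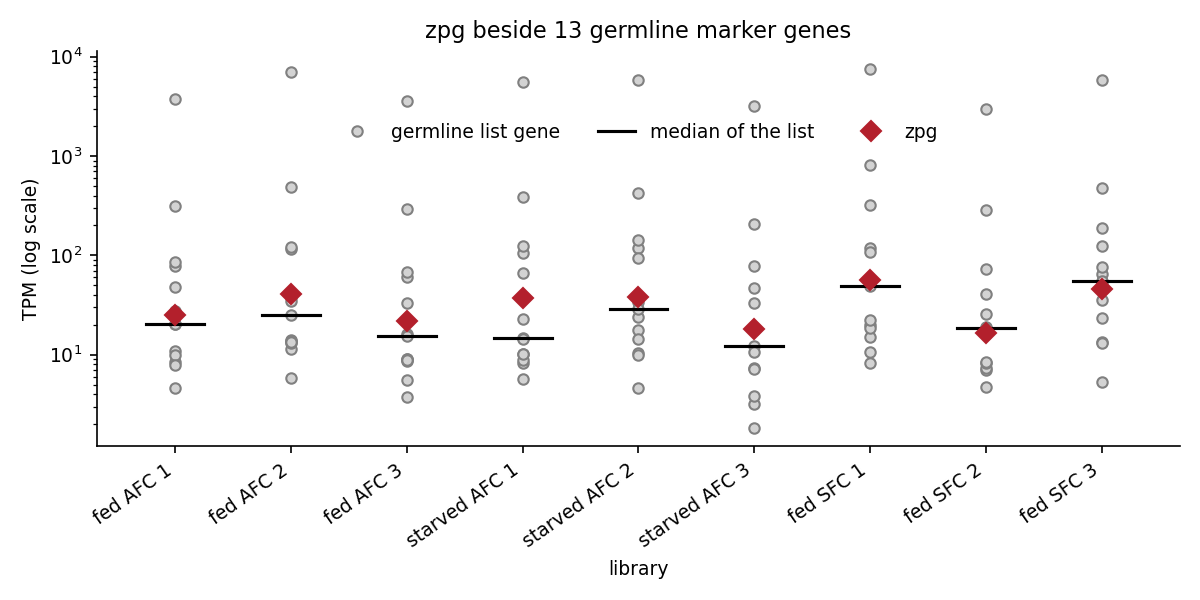
TPM (log scale) of *zpg* (red diamonds) and of 13 germline marker genes (grey points, with the median as a black line) in each of the 9 libraries. *zpg* lies among the germline genes in every library, from 0.831 times their median in fed SFC replicate 3 to 2.55 times in starved AFC replicate 1.

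The members did not vary as 1 group across the libraries. Pearson's r between pairs of members over the 9 libraries ran from -0.665 (*Inx7* and *zpg*) to 0.456 (*Inx2* and *zpg*). It was 0.0527 for *Inx2* and *Inx3*, known as partners, and -0.637 for the chromosomal neighbors *ogre* and *Inx7*. Among the 10869 other genes tested, those most like *zpg* were *gnu* (r = 0.940), an activator of a maternal kinase at egg activation, *BicD* (0.940), an adaptor for mRNA transport by dynein, and *mus302* (0.918). The genes most like *Inx2* were *Ubc2* (0.972), *CG4911* (0.951) and *CG7785* (0.938), and those most like *Inx3* were *Alp6* (0.972), *jus* (0.972) and *CG13654* (0.963). For *ogre* they were *Mst84B* (0.961), *HtrA2* (0.937), a mitochondrial protease, and *CG10214* (0.925). For *Inx7* they were *Kaz-m1* (0.940), *TotX* (0.939) and *sug* (0.926), a transcription factor induced by sugar. These values are the extremes of a search over 10869 genes with 9 libraries and are given as a description, with no test.

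Gap junctions lie beside adherens and septate junctions on the lateral membrane, and their genes were looked at as lists. All 10 adherens junction genes were tested, and none was past the adjusted threshold of edgeR's quasi-likelihood test in any comparison. An unadjusted p below 0.05 was found for 2 of them in SFCs against fed AFCs, 1 in starved against fed AFCs and 4 in SFCs against starved AFCs, where the shares of all genes were 19.7%, 5.02% and 17.9%. *arm* (beta-catenin) was the most abundant by CPM, at 361 ± 62.4 CPM in fed AFCs, 433 ± 38.3 in starved and 373 ± 46.1 in fed SFCs (SD, n = 3). It was followed by *cno*, a linker between adherens junctions and actin, by *aPKC*, a kinase of the apical domain, and by *pyd*, a junctional scaffold, at 83.0, 70.0 and 56.7 CPM on average over the 9 libraries. The median LFC of the list was 0.35 in SFCs against fed AFCs, 0.024 in starved against fed AFCs and 0.52 in SFCs against starved AFCs. All 13 septate junction genes were tested and none was past the threshold either, with 5, 1 and 6 of them at an unadjusted p below 0.05 in the same order of comparisons, beside the same shares of all genes. The most abundant were *Atpalpha*, a subunit of the sodium pump, at 108 CPM on average, and *l(2)gl*, *scrib* and *Mcr*, at 85.2, 66.8 and 49.6 CPM. The median LFCs of the 13 were 0.62, -0.23 and 0.60 in the same order. The median LFCs over all genes tested were -0.10, -0.094 and -0.016. Within 20 kb of each of the 5 innexin genes lay 6 to 8 other genes in the data, all tested. The windows of *ogre*, *Inx7* and *Inx2* overlap, and each counts the other members of this cluster. No gene in the windows was past the threshold in any comparison, where 2.99%, 0.221% and 2.22% of all genes were, in the same order.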

How the data were processed

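The authors prepared TRAP-seq libraries with a TruSeq kit and quantified them per transcript with Salmon 1.1.0 against BDGP6.32, with automatic library type, GC-bias correction and selective alignment. The deposited estimated counts are not normalized and need not be whole. The deposited TPM were computed by Salmon over effective lengths. By identifier, 30179 of 30215 transcripts matched the BDGP6.54 annotation. Gene values were sums over the transcripts of 14077 genes, rounded for counts and used as levels for TPM.

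Genes were filtered with filterByExpr (minimum count 10), scaled by TMM and tested in edgeR 4.0.16 under R 4.3.3 by the quasi-likelihood method, with 1 mean per group over all 9 libraries. P-values were adjusted over 10870 genes by the Benjamini-Hochberg method, with a threshold of 0.05. SEs came from the LFC and its F statistic. Depth gave 66 to 6192 reads per innexin gene and library, and counting intervals were not used.

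Nothing states that equal replicate numbers mark shared flies or days. Same-numbered libraries correlated from -0.530 to 0.385 in their deviations from group means. Libraries of different groups and different numbers correlated from -0.498 to 0.637, so the numbers were not used as pairs. P-values then measure the spread between pools of flies. With 3 against 3, an exact permutation test cannot go below 0.1.

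Named genes are all 8 innexins, *RpL10Ab*, the 3 genes most correlated with each member on log2 CPM (prior count 2), up to 4 genes of each junction list (the most abundant by CPM, as none was called). The markers *Sox14*, *br*, *Yp1*, *vas*, *osk*, *bcd* and *dhd* fall outside this rule and were chosen after their values were seen. Of the lists of other cell types, 5 of 8 midgut genes were lower and 3 of 7 muscle and 1 of 7 Malpighian tubule genes higher in SFCs than in fed AFCs, 3 of 8 midgut genes were lower in starved than in fed AFCs, and in SFCs against starved AFCs 3 muscle, 1 midgut, 1 Malpighian tubule and 1 fat body gene were higher and 2 midgut genes lower. No neuron or glia gene passed in the 3 comparisons. Of all genes tested, 2.99% passed in SFCs against fed AFCs, 0.221% in starved against fed AFCs and 2.22% in SFCs against starved AFCs. Members and lists were chosen with earlier results of these data known. Alternatives were other scalings, filters of 1 read or of 50 reads in 3 libraries, rRNA reads left out, DESeq2 1.42.0, limma-voom (limma 3.58.1), length offsets, only the groups compared, a replicate block, a threshold of 0.01 and libraries left out. The scripts were tested on simulated data.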

Additional observations from a re-analysis of the deposited data

How the results depend on the processing

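No innexin gene was past the threshold in any of 20 alternatives for the fold changes, nor at an adjusted p of 0.01, so the number called stayed at 0 in the 3 comparisons. In the fit with the replicate block it was also 0, with an LFC of -1.12 for *ogre* in starved against fed AFCs (unadjusted p = 0.0647 from edgeR's quasi-likelihood test). Of 300 fold changes in alternatives, 11 had the other sign, all in results that were not called. For SFCs against fed AFCs with fed AFC replicate 1 and fed SFC replicate 2 left out, the LFC was -0.14 for *Inx2* and 0.023 for *Inx3*. With single libraries left out it ran from -0.062 to 0.34 for *Inx2*, -0.22 to 0.19 for *Inx3*, -0.26 to 0.16 for *Inx7* and -0.12 to 0.52 for *zpg*. For starved against fed AFCs it ran from -0.40 to 0.22 for *zpg*, and for SFCs against starved AFCs from -0.16 to 0.75 for *ogre*. Others kept their sign but moved by over 1.5 times, as in starved against fed AFCs *Inx2* (-0.44 to -0.047) and *Inx3* (-0.76 to -0.21) and in SFCs against starved AFCs *Inx7* (-0.63 to -0.17) and *Inx3* (0.14 to 0.64). The cause was not tested. The LFC of *ogre* in starved against fed AFCs kept its sign in all 20, from -1.24 to -0.98, with adjusted p of 0.378 to 1. The ratios of the other members to *Inx2* within a library were also recomputed from reads per kilobase. The effective length of a gene was weighted by TPM, so this step returns the TPM ratios by construction. It says nothing of the stability of the ratios. Leaving out 1 of 3 replicates, added after seeing the data, cannot move a mean by 1 SD and also says nothing of the stability of the ratios.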
